A study of Arabidopsis thaliana with 18 samples.

Results

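Several organelles of the plant cell hold small heat shock proteins of their own, and 4 genes for such proteins are described here across untreated and heat-acclimated Arabidopsis thaliana seedlings. They are HSP22 (AT4G10250, endoplasmic reticulum), HSP23.5 (AT5G51440, mitochondrion), HSP26.5 (AT1G52560) and HSP15.7 (AT5G37670, peroxisome). They were chosen by name with earlier results of these data known. Each has 1 probe set assigned to it alone, which gives 4 of the 22746 probe sets tested. The RefSeq gene table for the assembly TAIR10.1 places HSP26.5 on chromosome 1, HSP22 on chromosome 4 and both HSP23.5 and HSP15.7 on chromosome 5, with 2 annotated transcripts for HSP26.5 and 1 for each of the others.

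Small heat shock proteins are chaperones built around a conserved alpha-crystallin domain. They bind unfolding proteins without using ATP, hold them in a soluble state and pass them to chaperones of the HSP70 and HSP100 families for refolding. In plants, heat shock factors switch on the nuclear genes for both the cytosolic and the organelle forms, and an address sequence in each organelle form directs the protein to its compartment. HSP22 carries an entry signal for the endoplasmic reticulum, where secreted and membrane proteins fold. HSP23.5 belongs to the mitochondrial class, HSP26.5 is catalogued as a mitochondrial protein although the rule used here states no compartment for it, and HSP15.7 ends in a peroxisomal import signal. Transcripts of some small heat shock protein genes stay high for days after a survivable heat treatment, a state known as heat stress memory.

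The genotypes were the bru1 mutant, affected in the nuclear genome maintenance protein BRU1 (TONSOKU), and the Columbia wild type (Col). For each genotype RNA was taken from seedlings that stayed untreated (control), 4 h after acclimation and 52 h after it. Per the labels' protocol the controls belong to the 4 h harvest, and no untreated group of the age of the 52 h seedlings is analysed here. Acclimation meant 1 h at 37 °C, 1.5 h at 23 °C and 45 min at 44 °C, given to seedlings aged 4 d and started 6 h after dawn. The medium held 1% glucose, and days of 16 h at 23 °C alternated with nights of 8 h at 21 °C. Age and heat therefore cannot be told apart at 52 h. Each of the 6 groups held 3 biological replicates on Affymetrix ATH1 arrays, 18 arrays in all, and this number limits the precision. Transcripts of BRU1 itself are not analysed here, and the genotypes are taken from the labels alone. The labels name no bru1 allele and no hybridisation run, so a run that differed between genotypes and the genotype itself cannot be told apart.

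Values are log2 expression per probe set, on which a difference of 1 is a doubling of signal, and changes are log2 differences ± SE from 1 limma fit of all arrays. Adjusted p-values are Benjamini-Hochberg values over the 22746 probe sets, and 0.05 was the threshold. Array medians lay between 6.49 and 6.55, and no array held the same values as another. Of the tissue markers measured, the leaf gene RCA (Rubisco activase) had group means of 13.84 to 14.17 and the root hair genes EXP7 and EXP18 of 5.04 to 7.20, whereas the shoot meristem gene CLV3 had group means of 3.49 to 3.69. The highest lower quartile of any array, 4.39, served as the mark for signal above background, and CLV3 lay under it in every group. The root hair genes moved with both the heat and the genotype. At 4 h both fell, EXP7 with changes of -0.82 in bru1 and -1.18 in Col and EXP18 with changes of -1.19 in bru1 and -1.29 in Col (limma adjusted p of 3.2e-04 to 0.011). At 52 h EXP18 was lower in both genotypes (-0.91 in bru1 and -1.11 in Col) and EXP7 was lower in Col (-1.15), while EXP7 in bru1 (-0.79 ± 0.24) had a limma adjusted p of 0.054. EXP18 was also higher in bru1 than in Col, by 0.88 in the controls, 0.98 at 4 h and 1.08 at 52 h (limma adjusted p of 0.0058 to 0.023), whereas EXP7 was not called between genotypes. The part of these shifts in the members' values was not tested. In bulk seedlings, fewer cells of a type and less RNA per cell cannot be told apart.

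HSP22, the endoplasmic reticulum member, rose steeply in both genotypes and was still far above its untreated level at 52 h. On the 3 bru1 arrays of each group, in replicate order, it read 4.54, 4.37 and 5.03 in the control, 13.10, 13.07 and 13.29 at 4 h, and 10.02, 10.80 and 9.87 at 52 h. On the Col arrays it read 4.48, 4.90 and 4.97 in the control, 12.96, 12.76 and 12.86 at 4 h, and 9.50, 9.77 and 10.84 at 52 h. Every 4 h array lay above every 52 h array, and every 52 h array lay above every control array, within each genotype. At 4 h HSP22 rose by 8.51 ± 0.28 in bru1 (365-fold, limma adjusted p = 6.4e-13) and by 8.08 ± 0.28 in Col (270-fold, limma adjusted p = 1.1e-12), n = 3 arrays a group. Among all probe sets this was the rise of rank 7 in bru1 and rank 8 in Col. At 52 h it stood 5.58 ± 0.28 above the control in bru1 (48.0-fold, limma adjusted p = 2.1e-09) and 5.25 ± 0.28 above it in Col (38.2-fold, limma adjusted p = 2.9e-09), which were the ranks 2 and 6. The control means, 4.65 in bru1 and 4.78 in Col, lay little above the background mark of 4.39. The array bru1 control replicate 2 (4.37) lay under that mark. The folds of HSP22 over the control therefore rest on reference values near background. The highest HSP22 value, 13.29, was below the top signal of each array, which lay between 14.35 and 14.61.

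**Figure D1:**
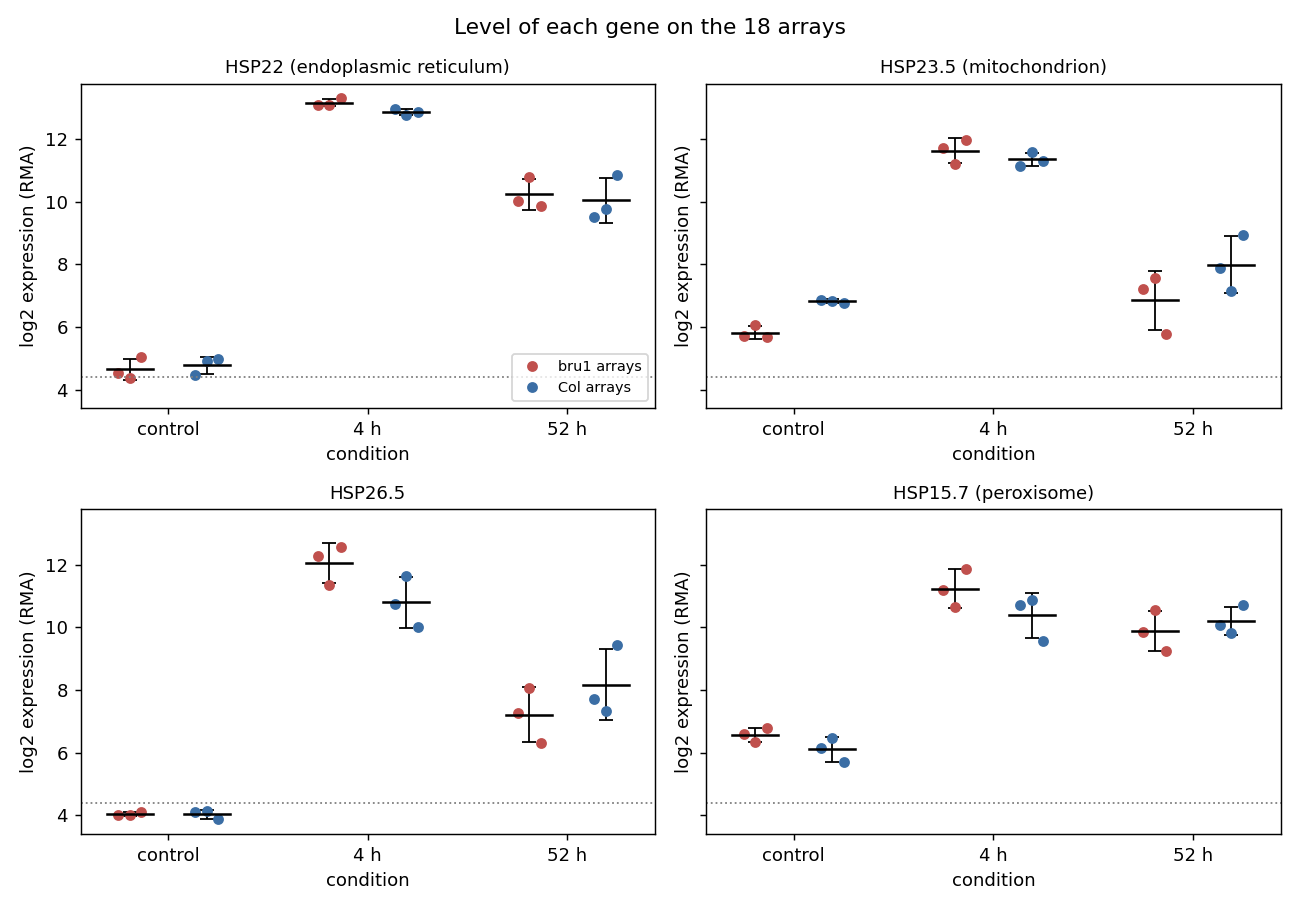
Log2 expression (RMA) of the 4 genes in untreated controls and 4 h and 52 h after acclimation, with bru1 (red) left of Col (blue) in each condition; points are arrays, black lines are means with SD (n = 3) and the dotted line is the background mark of 4.39. HSP22, HSP23.5 and HSP26.5 peak at 4 h in both genotypes. The 52 h arrays of HSP15.7 reach 9.26 to 10.55 in bru1, all below its 4 h arrays. In Col they reach 9.83 to 10.71 and overlap the 4 h arrays.

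HSP26.5 was not above background without heat and was far above it at 4 h and 52 h. The bru1 arrays read 4.02, 4.00 and 4.12 in the control, 12.28, 11.34 and 12.56 at 4 h, and 7.27, 8.06 and 6.31 at 52 h. The Col arrays read 4.10, 4.14 and 3.87 in the control, 10.74, 11.63 and 10.02 at 4 h, and 7.73, 7.32 and 9.45 at 52 h. None of the 6 control arrays exceeded its own lower quartile, so a fold over the control is a lower bound, computed with each control array set to its own lower quartile. By this bound HSP26.5 was at least 214-fold higher at 4 h in bru1 and at least 86.1-fold higher in Col. At 52 h it was at least 7.40-fold higher in bru1 and at least 13.9-fold higher in Col. These bounds allow for the control floor but not for the spread of the heat-treated arrays. With 1 heat-treated array left out, the lowest bound at 4 h was 180-fold in bru1 (without replicate 3) and 64.5-fold in Col (without replicate 2). At 52 h the lowest was 5.52-fold in bru1 (without replicate 2) and 8.92-fold in Col (without replicate 3). The fitted changes on the measured values were 8.01 ± 0.49 in bru1 (limma adjusted p = 1.2e-09) and 6.76 ± 0.49 in Col (limma adjusted p = 1.1e-08) at 4 h. At 52 h they were 3.16 ± 0.49 in bru1 (limma adjusted p = 5.3e-04) and 4.13 ± 0.49 in Col (limma adjusted p = 2.8e-05). In both genotypes the 3 groups did not overlap, although the replicates spread more widely than those of HSP22, with an SD of 1.13 over the Col 52 h arrays.

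HSP23.5, the mitochondrial member, had a measurable level without heat, rose at 4 h and at 52 h stood 2.04-fold above its control in bru1 and 2.24-fold above it in Col, differences that did not pass the test over all arrays. The bru1 arrays read 5.71, 6.06 and 5.69 in the control, 11.71, 11.19 and 11.97 at 4 h, and 7.20, 7.57 and 5.77 at 52 h. The Col arrays read 6.86, 6.84 and 6.76 in the control, 11.15, 11.58 and 11.31 at 4 h, and 7.89, 7.14 and 8.94 at 52 h. All arrays at 4 h lay above those of the other conditions, while at 52 h one bru1 array lay within the bru1 control range and every Col array lay above every Col control array. The rise at 4 h was 5.80 ± 0.39 in bru1 (55.8-fold, limma adjusted p = 4.1e-09) and 4.53 ± 0.39 in Col (23.0-fold, limma adjusted p = 9.3e-08). At 52 h the difference from control was 1.03 ± 0.39 in bru1 (limma adjusted p = 0.14) and 1.17 ± 0.39 in Col (limma adjusted p = 0.056), neither past the threshold. The Col difference passed with Col 52 h replicate 2 left out (1.59, limma adjusted p = 0.0081), with bru1 52 h replicate 2 left out (1.17, adjusted p = 0.039) or with bru1 52 h replicate 3 left out (1.17, adjusted p = 0.015). The bru1 difference passed without bru1 52 h replicate 3 (1.56, limma adjusted p = 0.0079).

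HSP15.7, the peroxisomal member, kept a larger share of its 4 h signal at 52 h than the others, 39.2% in bru1 and 87.7% in Col. The bru1 arrays read 6.59, 6.35 and 6.79 in the control, 11.19, 10.64 and 11.87 at 4 h, and 9.84, 10.55 and 9.26 at 52 h. The Col arrays read 6.14, 6.48 and 5.70 in the control, 10.73, 10.88 and 9.57 at 4 h, and 10.07, 9.83 and 10.71 at 52 h. In Col the 4 h and 52 h arrays overlapped, and in bru1 all 52 h arrays lay below the 4 h arrays. At 4 h the gene rose by 4.66 ± 0.37 in bru1 (25.2-fold, limma adjusted p = 2.6e-08) and by 4.28 ± 0.37 in Col (19.5-fold, limma adjusted p = 8.1e-08). At 52 h it stood 3.31 ± 0.37 above the control in bru1 (9.90-fold, limma adjusted p = 2.9e-05) and 4.09 ± 0.37 above it in Col (17.1-fold, limma adjusted p = 1.4e-06). Its rank among all rises moved with time, being 49 at 4 h and 11 at 52 h in bru1, and 41 at 4 h and 14 at 52 h in Col.

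At 4 h, then, all 4 genes were higher in each genotype, where 19.9% of all probe sets were called higher in bru1 and 18.2% in Col. With HSP26.5 at its lower bound, the median change of the 4 was 6.77 in bru1 and 5.48 in Col, against medians over all probe sets of 0.0088 and 0.00049. At 52 h 3 of the 4 were called higher in each genotype, where 3.05% of all probe sets were called higher in bru1 and 6.93% in Col. HSP23.5 averaged above its control but was not past the threshold. All 4 had an unadjusted limma p below 0.05 in each genotype at 52 h. So had 19.3% of all probe sets in bru1 and 27.5% in Col, in either direction. By the same bound the medians of the 4 at 52 h were 3.10 in bru1 and 3.95 in Col, against 0.011 and -0.018 over all probe sets. Both times were set against the same control arrays of their genotype. As the 4 genes were chosen with earlier results of these data known, the shares beside their counts only describe.

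**Figure D2:**
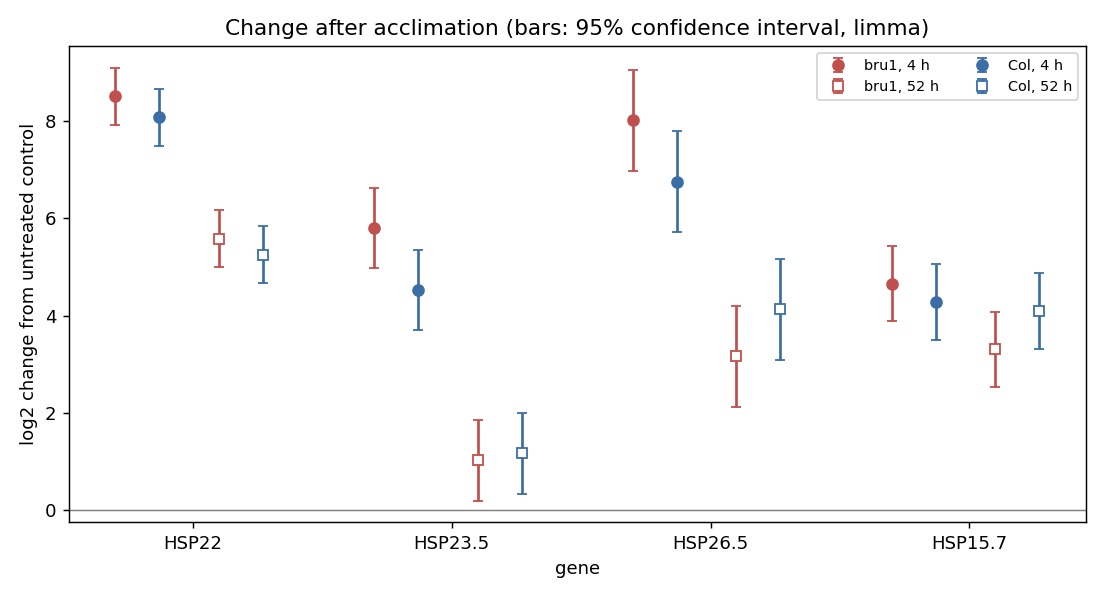
Log2 change from the untreated control of the same genotype for each gene, with bru1 in red, Col in blue, filled circles for 4 h, open squares for 52 h and bars for 95% confidence intervals from limma. The 4 h and 52 h changes lie far apart for HSP22, HSP23.5 and HSP26.5, and at 4.28 and 4.09 they lie close together for HSP15.7 in Col.

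Signs of RNA composition moved with the heat treatment as well. The 25S ribosomal RNA, read by a control probe set, averaged 13.25 ± 0.01 at 4 h and 11.13 ± 0.34 in the control in bru1, and 12.82 ± 0.40 at 4 h and 11.50 ± 0.20 in the control in Col (SD, n = 3 each). At 52 h it averaged 12.18 ± 0.12 in bru1 and 12.27 ± 0.19 in Col (SD, n = 3 each). Of 11 protein-coding genes of the mitochondrial genome, 10 rose at 4 h and 7 were higher at 52 h in each genotype, with median changes of 5.02 (bru1) and 4.86 (Col) at 4 h and of 1.35 (bru1) and 1.43 (Col) at 52 h. HSP23.5 and HSP26.5 are nuclear genes. The difference between 3' and 5' control probe sets of actin, a sign of RNA quality, was 3.51 ± 0.07 at 4 h and 3.03 ± 0.06 in the control in bru1, and 3.27 ± 0.15 at 4 h and 2.73 ± 0.06 in the control in Col (log2, SD, n = 3 each), with no overlap between 4 h and control arrays. In the controls this sign was also higher in bru1 than in Col without overlap. So was that of GAPDH (0.67 ± 0.10 in bru1 and 0.41 ± 0.05 in Col, SD, n = 3 each). At 4 h the actin sign was again higher in bru1 without overlap, while that of GAPDH overlapped. Against the control, the GAPDH sign at 4 h was higher in Col without overlap (0.62 ± 0.09, SD, n = 3). In bru1 the GAPDH sign at 4 h overlapped that of the control (0.60 ± 0.03, SD, n = 3). At 52 h the GAPDH sign was higher in bru1 without overlap (0.70 ± 0.05 against 0.48 ± 0.06, SD, n = 3 each). That of actin overlapped between genotypes. In Col the actin sign at 52 h (3.17 ± 0.28, SD) still lay above the control without overlap. In bru1 (3.01 ± 0.08, SD) it overlapped the control. The part of these shifts in the changes and genotype differences of the 4 genes was not tested.

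The decline between 4 h and 52 h separated the members. HSP22 kept 13.2% of its 4 h signal in bru1 (95% confidence interval 8.74% to 19.8%) and 14.1% in Col (9.40% to 21.3%). HSP23.5 kept 3.65% in bru1 (2.05% to 6.49%) and 9.75% in Col (5.48% to 17.3%). HSP26.5 kept 3.47% in bru1 (1.69% to 7.12%) and 16.2% in Col (7.87% to 33.2%). HSP15.7 kept 39.2% in bru1 (22.9% to 67.1%) and 87.7% in Col (51.2% to 150.2%), so that in Col a fall by nearly 2-fold remained within the interval. In bru1 the fall passed the test for all 4, where 20.1% of all probe sets were called lower, and in Col for all but HSP15.7 (limma adjusted p = 0.76), where 16.9% were. The fall of HSP15.7 in bru1 was 1.35 on the log2 scale (-1.35 ± 0.37, limma adjusted p = 0.0071).

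**Figure D3:**
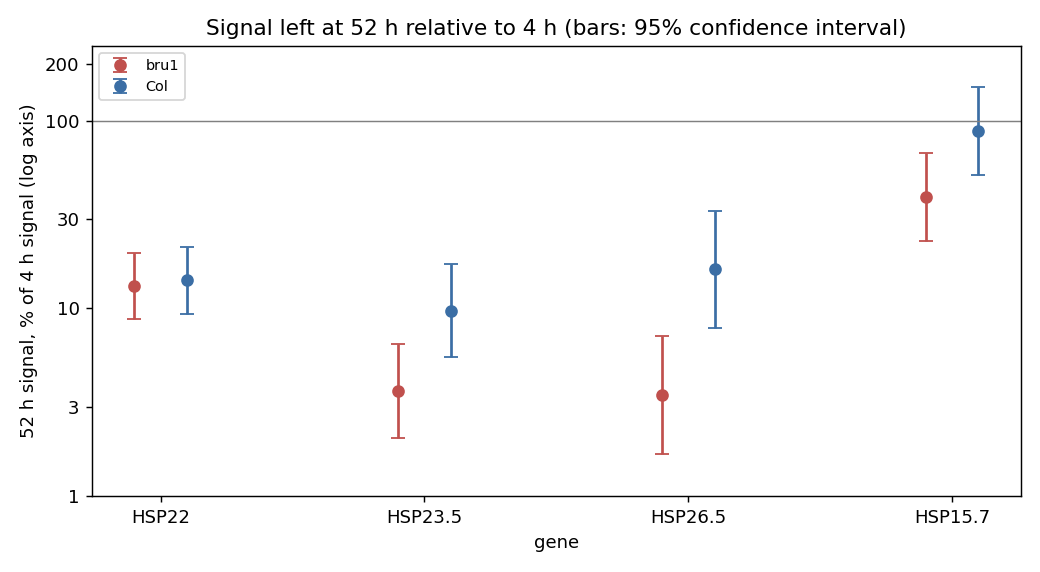
Signal at 52 h as a percentage of the signal at 4 h for each gene on a log axis, with bru1 in red left of Col in blue and 95% confidence intervals from limma as bars; the grey line marks no change. HSP15.7 lies highest in both genotypes (39.2% and 87.7%), and HSP26.5 and HSP23.5 lie lowest in bru1 (3.47% and 3.65%).

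Whether members differed from one another in this decline was tested on the difference between 2 probe sets on each array, 52 h against 4 h, by an exact permutation test within genotypes (2-sided, 400 arrangements, smallest possible p = 0.005), adjusted over the 6 pairs. HSP15.7 fell less than each of the others. The change of HSP22 minus that of HSP15.7 was -2.10 over both genotypes (exact permutation p = 0.005, adjusted p = 0.010), that of HSP23.5 minus HSP15.7 was -3.30 (exact permutation p = 0.005, adjusted p = 0.010) and that of HSP26.5 minus HSP15.7 was -2.97 (exact permutation p = 0.005, adjusted p = 0.010). These 3 differences had the same sign in each genotype, with no overlap between 52 h and 4 h arrays. HSP22 fell less than HSP23.5, by 1.19 (exact permutation p = 0.010, adjusted p = 0.015), a difference of 1.85 in bru1 and 0.54 in Col, where the 52 h and 4 h arrays overlapped. HSP22 and HSP26.5 could not be separated (0.87, exact permutation p = 0.11, adjusted p = 0.13), with 1.92 in bru1 and -0.19 in Col, nor could HSP23.5 and HSP26.5 (-0.33, exact permutation p = 0.27, adjusted p = 0.27).

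Between genotypes the 4 genes were compared at each condition and by an interaction, the change in bru1 minus the change in Col. Without heat, HSP23.5 averaged 5.82 ± 0.21 in bru1 and 6.82 ± 0.06 in Col (SD, n = 3 each), with all bru1 arrays below all Col arrays. The bru1 signal was 50.0% of that in Col, a difference that did not pass in the fit of all arrays (limma adjusted p = 0.12), where the groups share 1 spread. It passed when only the untreated arrays were fitted (limma adjusted p = 2.0e-04), when arrays were weighted (-1.04, adjusted p = 0.020) and without bru1 52 h replicate 3 (adjusted p = 0.045). HSP22 (-0.14), HSP26.5 (0.01, both groups under the background mark) and HSP15.7 (0.47) had limma adjusted p of 0.82, 0.99 and 0.48 in the controls. No member was therefore called in untreated seedlings by limma over all arrays, while HSP23.5 was the 1 with an unadjusted p below 0.05, as had 24.1% of all probe sets. Limma called 5.24% of all probe sets higher and 5.10% lower. How many of all probe sets had no overlap between untreated bru1 and Col arrays was not counted.

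At 4 h the bru1 minus Col difference was positive for all 4 genes, at 0.30 ± 0.28 for HSP22, 0.28 ± 0.39 for HSP23.5, 1.27 ± 0.49 for HSP26.5 and 0.84 ± 0.37 for HSP15.7. No difference passed limma over all arrays (adjusted p of 0.10 to 0.73), 2 had an unadjusted p below 0.05 (26.3% of all probe sets), and 6.45% of all probe sets were called higher and 6.96% lower. HSP22 read higher on all bru1 arrays than on all Col arrays, and the other 3 overlapped. The share of all probe sets without overlap between genotypes at 4 h was not counted. HSP26.5 passed without Col 4 h replicate 2 (1.68, limma adjusted p = 0.038) and without Col 52 h replicate 3 (1.27, adjusted p = 0.035).

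At 52 h HSP22 differed by 0.19 ± 0.28 between bru1 and Col, while HSP23.5 (-1.14 ± 0.39), HSP26.5 (-0.95 ± 0.49) and HSP15.7 (-0.32 ± 0.37) had negative differences. Without 1 array in turn these ranged from -1.57 to -0.60 for HSP23.5, from -1.38 to -0.31 for HSP26.5 and from -0.65 to -0.0043 for HSP15.7. No difference passed limma over all arrays (adjusted p of 0.071 to 0.74), 1 had an unadjusted p below 0.05 (25.0% of all probe sets), and 5.84% of all probe sets were called higher and 5.66% lower. The arrays of bru1 and Col overlapped for each gene at 52 h. HSP23.5 averaged 6.85 ± 0.95 in bru1 and 7.99 ± 0.90 in Col (SD, n = 3 each), and its difference passed without Col 52 h replicate 2 (-1.57, limma adjusted p = 0.011) or without bru1 52 h replicate 2 (-1.50, limma adjusted p = 0.024). As HSP23.5 also read lower in untreated bru1, its change from control to 52 h differed between genotypes by only -0.14 ± 0.56 (interaction, limma adjusted p = 0.97).

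**Figure D4:**
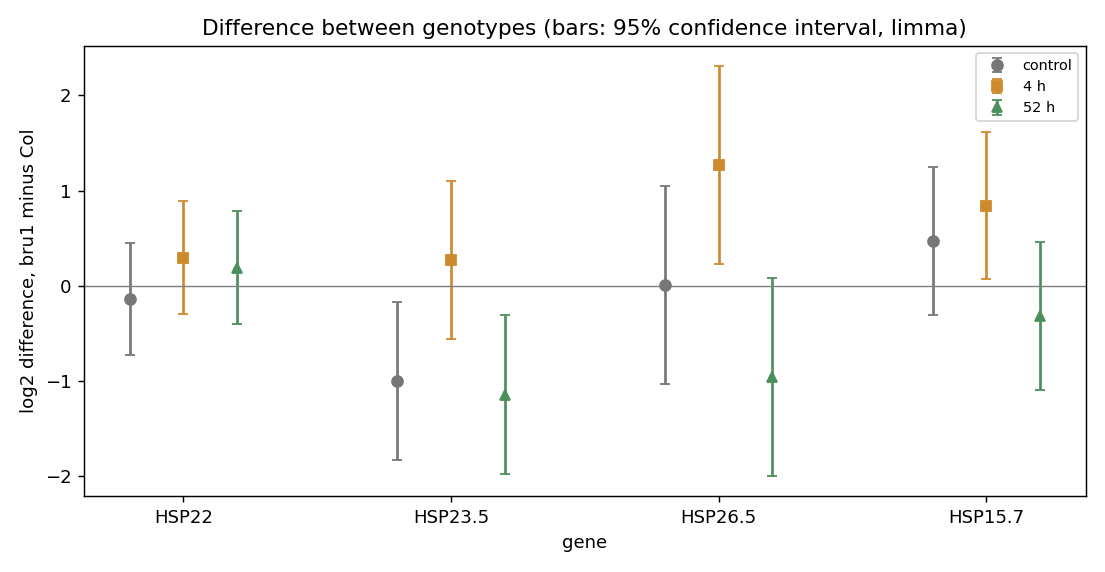
Difference in log2 expression, bru1 minus Col, for each gene in the controls (grey circles), at 4 h (orange squares) and at 52 h (green triangles), with 95% confidence intervals from limma as bars. The differences of HSP26.5 lie at 1.27 at 4 h and -0.95 at 52 h, while those of HSP22 lie between -0.14 and 0.30.

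None of the 4 genes passed the interaction test of limma over all arrays at 4 h, at 52 h or for the decline, with 1, 0 and 3 under an unadjusted p of 0.05, where 13.0%, 9.14% and 14.2% of all probe sets were. At 4 h the interactions were 0.43 ± 0.40 for HSP22, 1.28 ± 0.56 for HSP23.5, 1.26 ± 0.70 for HSP26.5 and 0.37 ± 0.52 for HSP15.7 (adjusted p of 0.34 to 0.81). HSP23.5 passed at 4 h when only the 12 arrays of the controls and 4 h were fitted (limma adjusted p = 0.024). At 52 h they were 0.33 ± 0.40 for HSP22, -0.97 ± 0.70 for HSP26.5 and -0.79 ± 0.52 for HSP15.7. For the change from 4 h to 52 h, bru1 minus Col, HSP26.5 had -2.22 ± 0.70 (limma adjusted p = 0.15), with a 95% confidence interval of -3.69 to -0.75. The corresponding values were -1.42 ± 0.56 for HSP23.5 (adjusted p = 0.26), -1.16 ± 0.52 for HSP15.7 (adjusted p = 0.32) and -0.10 ± 0.40 for HSP22 (adjusted p = 0.94). With arrays weighted by their estimated precision, the decline interactions of HSP26.5 (-2.13, limma adjusted p = 0.0081), HSP23.5 (-1.20, adjusted p = 0.042) and HSP15.7 (-1.26, adjusted p = 0.044) passed. Over all probe sets, 0.374% were called lower and 0.202% higher for the decline, 0.176% higher and 0.167% lower at 4 h, and 0.0176% higher and 0.101% lower at 52 h.

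In 3 of the 4 heat-treated groups, all but Col 4 h, single arrays had all 4 genes at the top or the bottom of their group. On Col 52 h replicate 3 all 4 genes read highest of their group, by 0.51 to 1.28 above the group mean. On bru1 52 h replicate 2 all 4 read highest (0.57 to 0.85 above) and on bru1 52 h replicate 3 all 4 read lowest (-1.08 to -0.36). On bru1 4 h replicate 3 all 4 likewise read highest (0.14 to 0.63 above) and on bru1 4 h replicate 2 all 4 read lowest (-0.72 to -0.08). Of 13 other heat-induced chaperone and memory genes or their relatives, 9 were highest on Col 52 h replicate 3, 8 on bru1 52 h replicate 2 and 7 on bru1 4 h replicate 3, while 39.2%, 36.2% and 31.8% of all probe sets were highest there. On Col 52 h replicate 3, 4 of the 13 read lowest, as did 3 of them on bru1 52 h replicate 2. On bru1 4 h replicate 1, where no member read highest, 6 of the 13 were highest, against 35.4% of all probe sets. Of the same 13, 9 were lowest on bru1 52 h replicate 3 and 10 on bru1 4 h replicate 2, against 37.5% and 37.4% of all probe sets. On Col 4 h replicate 2 HSP22 read lowest while the other 3 genes read highest, and 10 of the 13 were highest there (39.9% of all probe sets). Among the untreated arrays, Col control replicate 2 had all 4 genes above the group mean (0.02 to 0.37). On that array too 10 of the 13 were highest, against 41.9% of all probe sets.

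**Figure D5:**
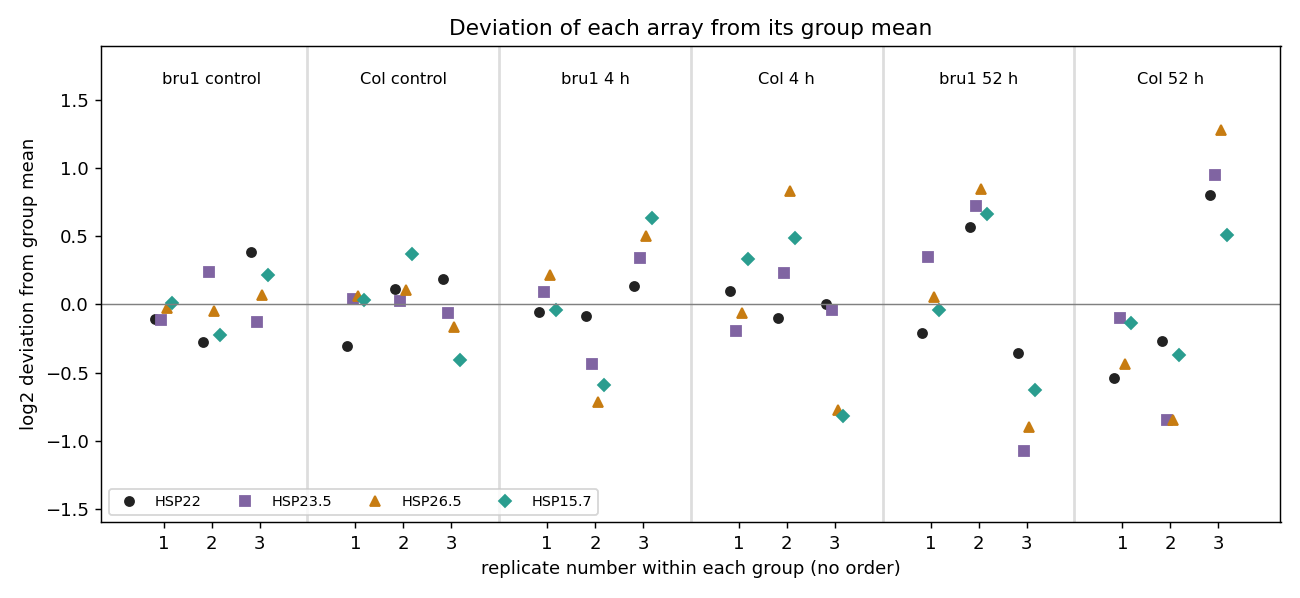
Deviation of each array from its group mean (log2) for HSP22 (black circles), HSP23.5 (purple squares), HSP26.5 (orange triangles) and HSP15.7 (green diamonds); numbers on the axis name replicates and have no order. The 4 genes lie on the same side of 0 on all Col 52 h arrays and on replicates 2 and 3 of the bru1 4 h and bru1 52 h groups.

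The genes whose pattern over the 18 arrays was most like that of each member were found by Pearson correlation among 2460 other genes whose group means spanned at least 1. The arrays fall into 6 groups and share their normalisation, so these values only describe likeness. HSP22 was closest to the cytosolic small heat shock protein gene HSP17.6C (r = 0.993), to AT5G25450 (r = 0.975) and to HSP17.6B (r = 0.971). HSP26.5 was closest to AT1G72660 (r = 0.989), to HSA32 (r = 0.988), whose protein is needed for acquired thermotolerance to last, and to AT3G10020 (r = 0.984). HSP23.5 was closest to AT1G01940 (r = 0.982), to AT4G39520 (r = 0.977) and to HOP3 (r = 0.977), a co-chaperone that bridges HSP70 and HSP90. HSP15.7 was closest to AT5G25450 (r = 0.972), to the temperature-induced lipocalin gene TIL (r = 0.962) and to HSP22 (r = 0.957). Of the 3 genes most like HSP15.7, which were picked on the same arrays, AT5G25450 and TIL were not called lower in Col, with 52 h minus 4 h changes of -0.76 ± 0.30 for AT5G25450 (limma adjusted p = 0.067) and -0.25 ± 0.22 for TIL (limma adjusted p = 0.46), and HSP22 fell by 2.82. In bru1 AT5G25450 (-1.96 ± 0.30, limma adjusted p = 5.8e-05) and TIL (-1.25 ± 0.22, limma adjusted p = 2.4e-04) were both called lower. The genes most like HSP23.5 fell in Col, AT1G01940 by 2.21, AT4G39520 by 1.22 and HOP3 by 3.62.

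Cytosolic small heat shock proteins hold unfolding proteins in the cytosol, and 7 of 14 listed genes for them and their relatives were measured. Of the 7, 4 rose at 4 h in each genotype, where 19.9% of all probe sets did in bru1 and 18.2% in Col, with medians of 2.05 in bru1 and 1.84 in Col. HSP17.6C (9.58 in bru1, 9.20 in Col) and HSP17.6B (6.36 in bru1, 6.80 in Col) had the largest changes. They were followed by HSP17.4-CIII (5.21 in bru1, 5.71 in Col) and HSP18.5 (2.05 in bru1, 1.84 in Col). The medians also take in HSP15.4, AT5G47600 and AT2G27140, which were not called at 4 h in either genotype. At 52 h 3 were higher and 1 lower in bru1, beside shares of 3.05% higher and 4.19% lower over all probe sets, and 4 were higher in Col, where 6.93% were. HSP17.4-CIII, like HSP23.5, was not past the threshold at 52 h in bru1 (0.60 ± 0.23, limma adjusted p = 0.14), but it was in Col (1.72 ± 0.23, limma adjusted p = 9.0e-05).

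Other genes for protein folding in the endoplasmic reticulum, the compartment of HSP22, had smaller changes than HSP22 itself, a comparison of values that was not tested. Those measured take in the transcription factors BZIP28 and BZIP60 as well as folding factors. Of 7 measured from a list of 19, 6 rose at 4 h in bru1 (19.9% of all probe sets) and 2 in Col (18.2% of all probe sets). None of the 7 interactions at 4 h passed limma (adjusted p of 0.14 to 0.92), so no genotype difference in rise was shown. In level, 3 of the 7 were called higher in bru1 than in Col at 4 h, where 6.45% of all probe sets were. These were BZIP28 (1.25 ± 0.29, limma adjusted p = 0.0069), BZIP60 (0.91 ± 0.22, adjusted p = 0.0099) and HSP70-17 (0.73 ± 0.22, adjusted p = 0.033). Against control none of the 7 passed limma at 52 h in either genotype. The largest changes at 4 h in bru1 were those of HSP70-17 (2.21 ± 0.22), a chaperone of the HSP70 superfamily, BZIP28 (1.48 ± 0.29), a membrane-bound transcription factor of the unfolded protein response, the lectin chaperone gene CNX2 (0.91 ± 0.14) and BZIP60 (0.89 ± 0.22), a second transcription factor of that response. In Col at 4 h HSP70-17 (1.22 ± 0.22) and CNX2 (0.44 ± 0.14) rose. The median change of the 7 at 52 h was 0.13 in bru1 and -0.08 in Col, where HSP22 stood at 5.58 and 5.25. From a list of 26 heat regulators, chaperones and memory genes, 6 were measured, of which 6 rose in bru1 and 5 in Col at 4 h, against the same shares of all probe sets. At 52 h 3 of them were higher in each genotype, HSA32 (2.02 in bru1, 2.35 in Col), ROF2 (1.89 in bru1, 2.46 in Col) and HOP3 (1.27 in bru1, 1.91 in Col). HSA32 thus had smaller changes at 52 h than HSP22, HSP26.5 and HSP15.7 in each genotype, which was not tested either.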

How the data were processed

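RNA of 18 samples was measured on Affymetrix ATH1 arrays, and the deposited table holds log2 expression per probe set, which the authors made with RMA (version not stated), per the submitters' processing notes. RMA corrects background, quantile-normalises probes and summarises probe sets; the sources used here do not give whether all arrays shared 1 run. The deposited values were used without further scaling. After 64 control probe sets were left out, 22746 were fitted in limma 3.58.1 under R 4.3.3 with a mean per group and 12 residual degrees of freedom. Exact permutation tests ran in Python 3.11.15. Adjustment followed Benjamini and Hochberg. Both tests were checked on simulated data in which the changes were known. For the permutation test this was a large difference with little noise, so its rate of false calls was not examined.

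Gene names came from the platform's probe annotation, matched to RefSeq (TAIR10.1) for names and chromosomes only: 13513 probe sets had 1 gene, 503 several, and 8730 stay unnamed. A gene on several probe sets was read on the one with the highest mean. The members and lists were chosen with earlier results of these data known. Named genes were the 4 members, the 3 genes most like each, and up to 4 per list with the largest changes; other genes named, and HSA32 at 52 h, were chosen after their values were seen. Lists of other organelle small heat shock proteins (0 of 3), mitochondrial (0 of 15) and plastid (1 of 12) chaperones and proteases, peroxisomal proteins (0 of 7) and vascular markers (0 of 5) had too few measured members and are not analysed here. Alternatives were a replicate block, fits of the compared groups alone, a filter on low values (17667 probe sets), trended or robust priors, median centring, quantile normalisation, array weights and leaving out each array. Deviations of same-numbered arrays correlated at r of -0.51 to 0.22, and only 1 of 9 comparisons (52 h against control in bru1) had every same-numbered pair over r = 0.1, so no block was used.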

Additional observations from a re-analysis of the deposited data

How the results depend on the processing

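All 21 changes past the threshold, between heat and control or between 52 h and 4 h, stayed past it in the same direction in all 8 other settings and without any single array. The other 27 changes and differences were below the threshold, and those that moved across it or turned sign follow. With only the compared groups fitted, HSP23.5 passed for bru1 against Col in controls (-1.0) and for the interaction at 4 h (1.28). HSP23.5 at 52 h in Col passed with the filter on low values (1.17) and with a trended prior (1.17). Array weights took past the threshold HSP23.5 at 52 h against control (1.23 in bru1, 1.06 in Col), in untreated bru1 against Col (-1.04) and at 52 h in bru1 against Col (-0.87). They did the same for bru1 against Col at 4 h in HSP26.5 (1.58) and HSP15.7 (1.04), at 52 h in HSP22 (0.54), and for the decline interactions of HSP23.5 (-1.20), HSP26.5 (-2.13) and HSP15.7 (-1.26). With weights the sign turned for the 52 h interaction of HSP23.5 (0.17) and the decline interaction of HSP22 (0.28), neither called. The cause was not tested.

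Without 1 array in turn, these values ranged as follows. HSP23.5 at 52 h against control ranged from 0.66 to 1.56 in bru1 and from 0.69 to 1.59 in Col. Between bru1 and Col, HSP23.5 ranged from -1.12 to -0.94 in controls and from -1.57 to -0.60 at 52 h, and HSP26.5 from -0.072 to 0.064 in controls and from 0.88 to 1.68 at 4 h. HSP22 ranged from -0.33 to 0.00089 in controls and from -0.093 to 0.59 at 52 h. The change of HSP15.7 from 4 h to 52 h in Col ranged from -0.60 to 0.053. The interactions ranged from -0.036 to 0.67 for HSP15.7 at 4 h, from -0.56 to 0.40 for HSP23.5 at 52 h and from -0.39 to 0.30 for the decline of HSP22.

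The decline differences between members, for which each genotype alone is a value with no test, were 1.85 in bru1 and 0.54 in Col for HSP22 minus HSP23.5, and 1.92 and -0.19 for HSP22 minus HSP26.5. They were -1.58 in bru1 and -2.63 in Col for HSP22 minus HSP15.7, -3.50 and -2.44 for HSP26.5 minus HSP15.7, and 0.075 in bru1 for HSP23.5 minus HSP26.5. The 4 called differences stayed past the threshold without any single array (highest exact permutation adjusted p = 0.0375). With the replicate block, as exact sign flips of 6 numbered pairs, the 4 had the same values (1.19, -2.10, -3.30 and -2.97). None of the 4 passed by sign flips (adjusted p of 0.0625 to 0.094). The 64 flips give no p below 0.03125 before adjustment, a limit of this test that did not alone fix the outcome. The replicate block changed no other call, including at 52 h against control in bru1, the 1 comparison whose numbered arrays deviated together.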

Other observations

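None of the measured genes beside the members was called higher at 4 h. The RefSeq table of TAIR10.1 gives 8 flanking genes, of which 3 were measured. AT5G37680, next to HSP15.7, fell at 4 h by 0.84 in bru1 (-0.84 ± 0.16, limma adjusted p = 4.3e-04) and by 1.33 in Col (-1.33 ± 0.16, limma adjusted p = 4.3e-06) on the log2 scale. At 52 h its difference from control was 0.10 ± 0.16 in each genotype, not past the threshold. AT4G10260, next to HSP22, had changes of 0.33 ± 0.15 in bru1 and 0.01 ± 0.15 in Col at 4 h, and AT1G52550, next to HSP26.5, had changes of -0.27 ± 0.12 in bru1 and 0.02 ± 0.12 in Col, none of which passed limma.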
